A study of Mus with 2 samples.

Results

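Wnt proteins are secreted signals. This account follows the RNA of 7 of their genes, Wnt2b, Wnt4, Wnt5a, Wnt6, Wnt7b, Wnt9b and Wnt11, through the cell types of the newborn mouse kidney. The 7 genes were chosen by symbol and are 7 of the 28693 features counted. All 7 are protein coding and matched by symbol to a RefSeq gene table of the mouse assembly GRCm38.p6, the source of the coordinates below. The cells were barcodes with at least 2000 unique molecular identifiers (UMIs, each standing for 1 captured RNA molecule) of which at most 10% were mitochondrial. The rule kept 6220 barcodes in replicate 1 and 5149 in replicate 2, and 5891 and 4924 cells remained after doublets were removed. Of these 10815 cells, 9308 were assigned to 1 of 19 types by marker genes, and 6903 of them fell in the 16 ureteric, nephron, stromal and mural types compared below.

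Both libraries came from kidneys at P0, the day of birth, of mice with the genotype Rbpj c/- ; Foxd1cre/+. One Rbpj allele was conditional (c) and the labels write the other as "-". Cre recombinase came from the Foxd1 locus, a gene of the stromal progenitors, and the design gives the interstitium as the place of deletion. Rbpj encodes the DNA-binding protein of the Notch pathway. The control kidneys named in the design (Rbpj c/+ ; Foxd1cre/+) were not analysed here, so every comparison below is between cell types within mutant kidneys, and none measures what the deletion does. How many animals went into a library was not stated. The p-values rest on how far types differed between these 2 libraries beyond a shift shared by all types. Rbpj itself stood at 26.1 and 23.5 CPM (UMIs of the gene per 1000000 UMIs of the type) in stromal types of replicates 1 and 2, at 50.2 and 50.8 CPM in nephron types and at 43.2 and 45.8 CPM in ureteric types. UMIs were taken at the 3' end of the RNA, which a deleted transcript may keep, so these levels do not check the deletion.

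Wnt proteins bind Frizzled receptors on nearby cells. In the canonical branch, Lrp5 or Lrp6 joins the receptor and beta-catenin switches on target genes such as Axin2 and Lef1, while other branches act on cell shape and movement. In the developing kidney, Wnt9b from the ureteric epithelium is known to call nephron progenitors to differentiate, and Wnt4 is needed in those progenitors as they become epithelial. Wnt11 is the classic ligand of the branching ureteric tip, and Wnt7b from the collecting duct is known to act on the neighbouring medulla.

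Type names rest on markers alone, with no Wnt gene and no gene of the pathway list below among them, and stand for cells like those named. The ureteric types were the tip (56 and 67 cells in replicates 1 and 2) and the collecting duct (107 and 88). The nephron types ran from progenitors (959 and 1010) through renal vesicle (188 and 212) and the distal (104 and 91) and proximal (140 and 98) precursors to podocytes, proximal tubule, loop of Henle and distal tubule. The stromal types were cortical (466 and 458), medullary (63 and 80), mesangial (291 and 211), interstitial (217 and 155) and adventitial (42 and 31). The interstitial type was told apart from other stroma by 2 markers alone, Igfbp3 and Cxcl14. In every type the median cell held more UMIs of the marker list of its class than of any other class list. In ureteric tip cells this was 87 or more of the ureteric list against 10.5 or fewer of the early nephron list. Ureteric, early nephron and stromal types each share a class list, so these counts do not check the splits within a class. The same lists gated the cells. Clustering the cells instead gave 87.6% of gated cells the same type. The libraries held 163405630 and 135436576 UMIs, and the median cell held 11704 and 12186. Barcodes shared by both libraries numbered 8.

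Background was read in 2 places. Endothelial, immune and erythroid cells stand outside the lineages compared, and barcodes with at least 10 and under 100 UMIs were read as free RNA. Those low barcodes held 55.1 ± 3.90 CPM of Wnt4, 26.0 ± 4.10 CPM of Wnt5a and under 5 CPM of each other ligand (mean ± SD, n = 2 libraries, here and below unless another error is named). These rest on few UMIs, from 0 for Wnt2b to 87 for Wnt4. In endothelial cells Wnt4 stood at 4.99 ± 1.44 CPM, Wnt5a at 2.71 ± 0.92 and Wnt11 at 1.53 ± 0.29, and the other 4 ligands stood under 0.4. All intervals and limits given for counts cover counting error only.

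**Figure D1:**
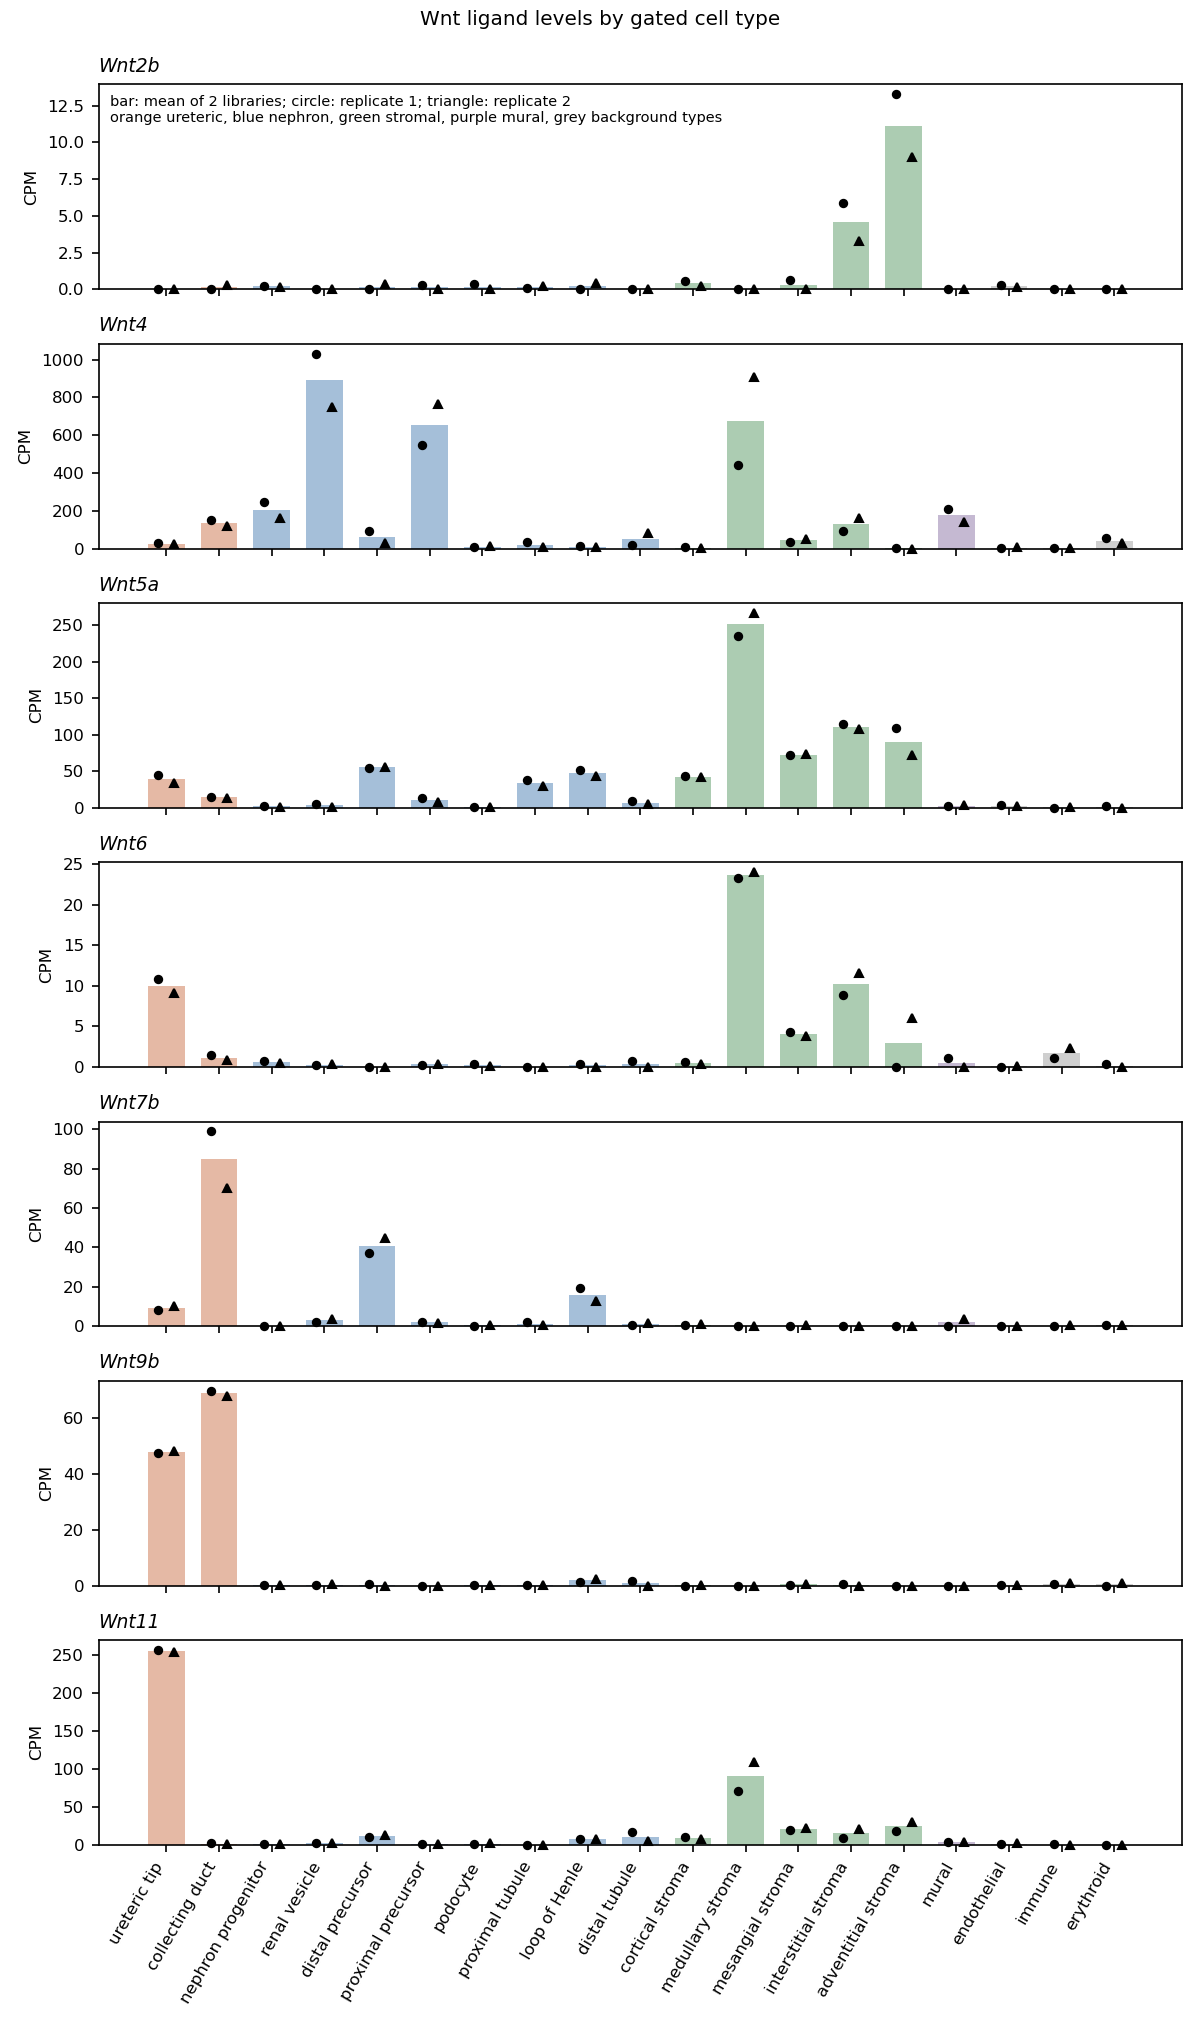
Level of each ligand (CPM, vertical axis, a scale for each gene) in the 19 gated types. Bars are means of both libraries and points are the libraries. Wnt11 stands at 256 CPM in the ureteric tip and 1.49 CPM in the collecting duct, and Wnt4 has high bars in the renal vesicle, the proximal precursor and the medullary stroma.

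The ligands of the ureteric tree divided it along its length. Wnt11 (ENSMUSG00000015957, chromosome 7, 98835084 to 98854747) stood at 257 CPM in the ureteric tip of replicate 1 (95% Poisson interval 239.7 to 276) and at 255 CPM in replicate 2 (233.4 to 277). In the collecting duct the same gene stood at 2.16 and 0.827 CPM, from 10 and 3 UMIs. The tip values of both libraries lay far above both collecting duct values. In edgeR's quasi-likelihood fit, with p-values adjusted over all genes by Benjamini-Hochberg as for every adjusted p below, Wnt11 was higher in the tip by a log2 fold change of 7.29 ± 0.25 (SE), adjusted p = 2.7e-20. The counts of both libraries pooled gave a ratio of 163 (95% interval 94.8 to 306), with 119 in replicate 1 and 308 in replicate 2.

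Wnt11 was found in 89.3% and 74.6% of tip cells. Since tip cells were deep, with medians of 33269 and 18992 UMIs, cells were also thinned at random to 4600 UMIs each, and 53.6% and 50.0% of tip cells then still had a Wnt11 UMI. The thinned share in endothelial cells, whose median depths were 8379 and 8917.5 UMIs, was 0.489% and 0.730%, against 1.64% in both libraries unthinned. Outside the tip, Wnt11 was highest in the medullary stroma, at 71.6 and 109 CPM, and next in adventitial stroma, at 18.6 and 30.01 CPM. Adventitial, mesangial (20.65 ± 1.499 CPM) and interstitial (15.43 ± 8.504 CPM) stroma overlapped in their library values, so their order is not resolved. Of all Wnt11 UMIs in kept cells, 59.4% lay in the ureteric types, which made up 2.94% of the cells and 6.50% of all UMIs.

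Wnt9b (ENSMUSG00000018486, chromosome 11, 103727362 to 103775272) was found in both ureteric types and nearly nowhere else. It stood at 47.4 and 48.2 CPM in the tip and at 69.8 and 67.9 CPM in the collecting duct. The collecting duct was higher in both libraries, but the difference of -0.55 ± 0.22 (SE) in log2, tip minus collecting duct, did not pass the threshold of 0.05 (adjusted p = 0.052). The range over the alternative settings was 0.0064 to 0.11, so the call turns on the setting. The next type was the loop of Henle at 1.83 ± 0.92 CPM, and every other type had a mean below 1 CPM, with 0 UMIs in proximal precursor, medullary stroma, adventitial stroma and mural cells. In the medullary stroma a count of 0 allows up to 4.99 and 3.79 CPM, still under the ureteric levels. Ureteric types held 91.6% of the 890 Wnt9b UMIs.

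Wnt7b (ENSMUSG00000022382, chromosome 15, 85535437 to 85581821) had the opposite slope to Wnt11. It stood at 98.9 and 70.3 CPM in the collecting duct and at 8.17 and 10.5 CPM in the tip. The groups did not overlap, and the log2 fold change of the tip against the collecting duct was -3.23 ± 0.31 (SE), adjusted p = 2.7e-09. After thinning to 4600 UMIs, 26.7% and 19.05% of collecting duct cells had a Wnt7b UMI, against 0.326% and 0 of endothelial cells. Wnt7b had a further site in the nephron. It stood at 36.9 and 44.8 CPM in the distal precursor and at 19.2 and 12.8 CPM in the loop of Henle, and these types, the collecting duct and the tip kept their order without overlap. Nephron types held 33.8% of the Wnt7b UMIs, below their 56.5% of all UMIs, and ureteric types 46.6%.

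Wnt6 (ENSMUSG00000033227, chromosome 1, 74754342 to 74785322) was scarce, with 237 UMIs in all kept cells. It stood at 10.8 and 9.07 CPM in the tip, from 33 and 19 UMIs, and at 1.51 and 0.827 CPM in the collecting duct, from 7 and 3 UMIs. In replicate 2 a single cell held 31.6% of the tip UMIs. The tip was higher by 3.001 ± 0.517 (SE) in log2, adjusted p = 3.1e-05. The tip was not its highest type. The medullary stroma held 23.3 and 24.0 CPM, and the interstitial stroma held 8.83 and 11.5 CPM, a range that overlaps the tip. No Wnt6 UMI was seen in the distal precursor or proximal tubule, where a count of 0 allows at most 1.03 and 0.347 CPM in the shallower library.

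Between tip and collecting duct 5 of the 7 ligands passed the threshold, where 35.2% of the 14233 genes tested did. Wnt11, Wnt6 and Wnt5a were higher in the tip, and Wnt7b and Wnt4 were higher in the collecting duct. Wnt5a stood at 45.1 and 34.4 CPM in the tip and 15.1 and 13.2 in the collecting duct, a log2 fold change of 1.47 ± 0.23 (SE) with an adjusted p of 6.5e-06. Wnt4 stood at 30.4 and 21.5 CPM in the tip and 151 and 119 in the collecting duct, a log2 fold change of -2.39 ± 0.50 (SE) with an adjusted p of 3.1e-04. The tip level of Wnt4 lay below that of the low-UMI barcodes and above that of endothelial cells. Wnt2b gave 1 UMI in all ureteric cells and no usable comparison.

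Single collecting duct cells often carried several ligands. Cells were thinned to 11900 UMIs for this count, which left 92 and 78 collecting duct cells. Wnt7b was found in 63.6% and 73.2% of cells with a Wnt4 UMI and in 21.6% and 27.0% of those without. Wnt9b was found in 58.2% and 61.0% of cells with Wnt4 against 21.6% and 29.7% without, and in 58.1% and 62.5% of cells with Wnt7b against 30.6% and 28.9% without. Thus all 3 pairs were more frequent together in both libraries. In the tip the pair of Wnt11 and Wnt9b went the other way, since Wnt9b was found in 37.5% and 28.2% of cells with Wnt11 and in 63.6% and 50.0% of cells without. Wnt11 was found in 40 of 51 and 39 of 61 tip cells, so the cells without it were few. Wnt5a showed no stable relation to Wnt11 there, with 45.0% against 27.3% in replicate 1 and 35.9% against 40.9% in replicate 2. Cells of 1 library are not replicates, so these shares are given with no test.

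**Figure D2:**
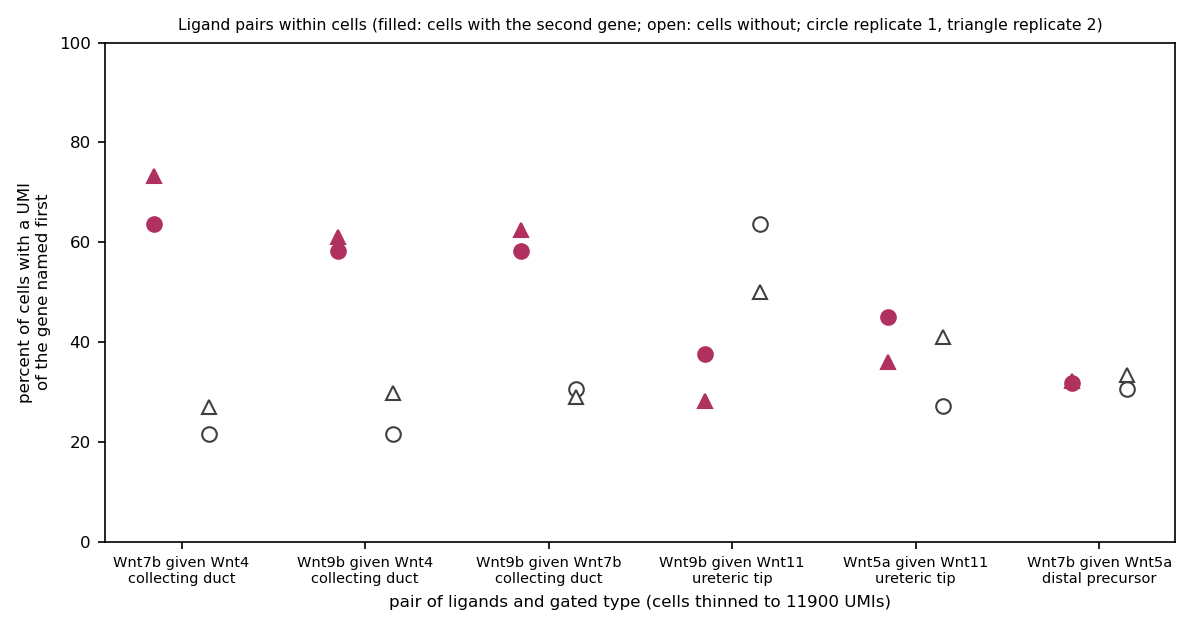
Share of cells (percent, vertical axis) with a UMI of the gene named first among cells with (filled) and without (open) a UMI of the gene named after "given", for 6 pairs, each cell thinned to 11900 UMIs. In the collecting duct, filled points lie at 58.1% or above and open points at 30.6% or below, while for Wnt9b given Wnt11 in the tip the open points lie higher.

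Among nephron types, Wnt4 (ENSMUSG00000036856, chromosome 4, 137277635 to 137299501) was highest in the renal vesicle and the proximal precursor. It stood at 245 and 162 CPM in nephron progenitors and at 1032 and 751 CPM in the renal vesicle, the first epithelial stage, so both renal vesicle values lay above both progenitor values. The log2 fold change was 2.01 ± 0.33 (SE), adjusted p = 7.8e-06. After thinning to 4600 UMIs, 84.3% and 80.2% of renal vesicle cells and 28.5% and 21.1% of progenitors had a Wnt4 UMI. In endothelial cells that share was 2.12% and 1.70%. Nephron types held 70.3% of the 37904 Wnt4 UMIs and 56.5% of all UMIs.

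Beyond the renal vesicle Wnt4 parted by branch. The proximal precursor, marked by Osr2 and Cdh6, held 549 and 764 CPM, a range that overlaps the renal vesicle. The distal precursor, marked by Irx1 and Sim2, held 94.6 and 31.7 CPM. Differentiated segments were low, with 9.61 and 10.8 CPM in podocytes and 12.9 and 7.02 CPM in the loop of Henle. Proximal tubule held 33.0 and 6.47 CPM and distal tubule 18.2 and 81.0 CPM, but few cells carried those UMIs. Without the 4 highest cells the levels were 7.77 CPM in proximal tubule and 5.89 CPM in distal tubule, both libraries pooled. The same held of erythroid cells, where 4 of 860 cells carried 82.9% of the Wnt4 UMIs and the level without them was 7.84 CPM.

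Progenitors were not uniform in Wnt4. Cited1 marks the uncommitted progenitor and was among the markers of the progenitor gate. Thinned to 4600 UMIs, progenitors with no Cited1 UMI (272 and 245 cells) held 483 and 435 CPM of Wnt4, with a Wnt4 UMI in 57.4% and 52.2% of cells. Progenitors with Cited1 (676 and 759 cells) held 79.8 and 43.8 CPM, with a Wnt4 UMI in 16.9% and 11.1%. Cells set aside because their scores for progenitor and early nephron were too close, 21 in each library, held 810 and 945 CPM.

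In the step from progenitor to renal vesicle 3 of 7 ligands passed the threshold, all higher, where 45.0% of genes tested passed in either direction and 21.4% were higher. Beside Wnt4 these were Wnt7b, with 2.94 ± 0.52 (SE) in log2 and an adjusted p of 3.6e-05, and Wnt11, with 1.56 ± 0.47 (SE) and an adjusted p of 0.0074. Both were low in level. Wnt7b stood at 2.05 and 3.84 CPM in the renal vesicle and at 0.283 and 0.373 CPM in progenitors. Wnt11 stood at 2.05 and 1.76 CPM against 0.767 and 0.373 CPM, near its endothelial level. The Wnt11 call was lost with a stricter gate margin, which gave 0.63 in log2 and an adjusted p of 0.47, and with at most 5% mitochondrial UMIs, which gave an adjusted p of 0.13.

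The 2 ureteric types were also set against the 8 nephron types, as means of log levels in which each type has the same weight. In this contrast 5 of 7 ligands passed, all higher in ureteric types, where 43.9% of genes tested passed and 23.1% were higher. Wnt9b led with 7.48 ± 0.20 (SE) in log2, adjusted p = 3.8e-22. The proximal precursor held 0 Wnt9b UMIs, which leaves this fitted size uncertain. The pooled level of Wnt9b was 60.8 CPM in ureteric and 0.360 CPM in nephron types, a ratio of 169 (95% interval 124 to 236). Wnt7b followed with 3.499 ± 0.264, Wnt11 with 3.49 ± 0.42 and Wnt5a with 1.40 ± 0.16 (log2 fold change ± SE), with adjusted p of 4.8e-12, 3.1e-08 and 1.0e-08. Wnt6, which had no UMI in 2 nephron types, passed with an adjusted p of 5.1e-08 and a pooled ratio of 13.48 (95% interval 8.91 to 20.6). Wnt4 did not pass, at -0.31 ± 0.30 (SE) and adjusted p = 0.45, although its pooled level was 94.6 CPM in ureteric and 229 CPM in nephron types. The 2 measures differ by construction. A mean of log levels is pulled down more by the several nephron types low in Wnt4 than a pooled level is. With clusters in place of gates the Wnt4 value turned to 0.58 in log2, adjusted p = 0.011, and with no filter on low counts it passed in the opposite direction, at -0.33 and adjusted p = 0.0018.

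Stroma carried Wnt5a most widely. Wnt5a (ENSMUSG00000021994, chromosome 14, 28504543 to 28527448), a ligand best known for non-canonical signalling, stood at 235 and 267 CPM in the medullary stroma. It followed at 115 and 107 CPM in interstitial, 109 and 72.0 CPM in adventitial, 72.4 and 73.1 CPM in mesangial and 43.4 and 41.9 CPM in cortical stroma. Medullary stroma lay above the other 4 in both libraries, interstitial and adventitial stroma overlapped, and cortical stroma was the lowest. Mural cells held 2.14 and 3.90 CPM, close to the endothelial level.

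Wnt5a was not confined to stroma. The distal precursor held 54.7 and 55.5 CPM, the loop of Henle 51.4 and 43.0 CPM and the proximal tubule 38.3 and 30.4 CPM. The distal precursor lay above the ureteric tip in both libraries, and the other two overlapped it. Nephron progenitors held 2.71 and 1.35 CPM, the renal vesicle 5.20 and 1.44 CPM and podocytes 0.497 and 0.745 CPM, levels near those of endothelial cells. Nephron types held 39.3% of the 4630 Wnt5a UMIs and 56.5% of all UMIs, and stromal types held 33.6% of Wnt5a and 9.83% of all UMIs. Thinned to 4600 UMIs, 66.1% and 56.6% of medullary stromal cells had a Wnt5a UMI, against 17.7% and 18.8% of cortical ones and 1.14% and 0.487% of endothelial cells.

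The medullary stroma held more of 4 ligands than the cortical stroma. Wnt4, Wnt6, Wnt11 and Wnt5a passed the threshold, all higher in the medulla, where 18.6% of genes tested passed and 9.11% were higher. Wnt4 stood at 441 and 909 CPM in medullary and at 6.57 and 1.69 CPM in cortical stroma, a log2 fold change of 7.36 ± 0.58 (SE) with an adjusted p of 1.9e-11. The libraries differed in the medullary level by more than counting error, with intervals of 389.7 to 498 and 843.5 to 978 CPM. Replicate 2 alone gave a log2 difference of 8.68 and replicate 1 alone 5.96. The medullary level in replicate 2 exceeded that of the renal vesicle, so the order of those types is not resolved. Among medullary stromal cells thinned to 4600 UMIs, 44.1% and 69.7% had a Wnt4 UMI.

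Wnt6 was higher in medullary stroma by 5.47 ± 0.60 (SE) in log2, adjusted p = 4.6e-08, from 14 and 19 UMIs against 3 and 2 in cortical stroma. Wnt11 was higher by 3.33 ± 0.26 (SE), adjusted p = 1.5e-11, with cortical levels of 9.65 and 8.22 CPM. Wnt5a was higher by 2.55 ± 0.18 (SE), adjusted p = 1.2e-12. The ligands overlapped within cells. Of 33 medullary stromal cells with at least 11900 UMIs, thinned to that number, 32 had a Wnt5a UMI, 21 a Wnt4 UMI and 17 a Wnt11 UMI. Wnt5a was found in all 21 cells with Wnt4 and in 91.7% of cells without. Since nearly every cell had Wnt5a, these shares cannot show whether the 2 ligands go together. The Wnt4 cells were 5 of 14 in replicate 1 and 16 of 19 in replicate 2, and the Wnt11 cells 4 of 14 and 13 of 19. The mural marker list was the second highest class list in medullary stromal cells, with medians of 13 and 19 UMIs against 52 and 69 of the stroma list. Mural cells held 210 and 142 CPM of Wnt4, 2.14 and 3.90 CPM of Wnt5a and 4.27 and 3.90 CPM of Wnt11, all under the medullary levels. Of the mural Wnt4 UMIs, 50% lay in 4 of 105 cells, and the level without them was 106 CPM.

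Wnt2b (ENSMUSG00000027840, chromosome 3, 104944805 to 104961709) was the scarcest ligand, with 56 UMIs in all kept cells. It stood at 13.3 and 9.003 CPM in adventitial stroma, the Clec3b and Dpt fibroblasts around vessels, from 5 and 3 UMIs. In interstitial stroma it stood at 5.89 and 3.30 CPM, from 10 and 4 UMIs. The adventitial mean of 11.1 CPM fell to 7.20 CPM without the 1 cell per library with the most UMIs, and the Poisson intervals of the 2 types overlapped in both libraries. Every other type had a mean of at most 0.4 CPM. In counts pooled over libraries the 5 stromal types held 28 UMIs and the nephron types 18, and the level was 8.95 times as high in stroma (95% interval 4.78 to 17.2), with 12.9 in replicate 1 and 5.07 in replicate 2. The fit gave no usable error for Wnt2b in the 3 contrasts of means, because too many types held no UMI. In the 3 other contrasts it passed no threshold. DESeq2, run as an alternative, called it higher in stroma than in ureteric types (adjusted p = 0.0032) and nephron types (adjusted p = 5.4e-06).

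Against ureteric types, stromal types were higher in Wnt5a and lower in Wnt9b and Wnt7b, 3 of 7 ligands where 58.5% of genes tested passed. Wnt5a was higher by 2.11 ± 0.13 (SE) in log2, adjusted p = 5.2e-15. The stromal types held 4 Wnt9b UMIs against 815 in ureteric types, a level 308 times lower (95% interval 119.8 to 1133), adjusted p = 7.9e-18 in the fit. They held 9 Wnt7b UMIs against 760, a level 128 times lower (95% interval 66.9 to 280), adjusted p = 1.4e-12 in the fit. The Wnt7b ratio was 232 in replicate 1, from 3 stromal UMIs, and 74.3 in replicate 2, from 6. Medullary, interstitial and adventitial stroma held 0 Wnt7b UMIs, which allows up to 4.99 and 3.79 CPM in medullary, 1.77 and 2.47 CPM in interstitial and 7.96 and 9.003 CPM in adventitial stroma. Wnt4, Wnt6 and Wnt11 did not pass, at -0.71 ± 0.60, 0.41 ± 0.41 and 0.27 ± 0.25 (log2 fold change ± SE), with adjusted p of 0.32, 0.41 and 0.37. For Wnt11 the mean of log levels and the pooled level differ in sign, since the tip alone carried the ureteric level of 99.5 CPM against 19.04 CPM in stroma. With clusters in place of gates 5 ligands passed, where 8677 of 14987 genes tested did. Wnt4 (-1.14 in log2) and Wnt11 (0.97) were the added ones. Wnt4 also passed with a stricter gate margin (-1.12, adjusted p = 0.027) and with no filter on low counts (-0.74, adjusted p = 2.2e-04). Levels pooled over types within a library did not share a direction for Wnt4. Replicate 2 had more of it in stroma, 112 CPM against 83.4 CPM in ureteric types. Replicate 1 had less, 51.8 CPM against 103 CPM. Each gap was beyond counting error, so a lower stromal Wnt4 does not hold in both libraries by this measure.

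Against nephron types, stromal types were higher in Wnt6, Wnt11 and Wnt5a and lower in Wnt7b, 4 of 7 ligands where 61.4% of genes tested passed. The log2 fold changes were 3.76 ± 0.24 (SE) for Wnt11 and 3.51 ± 0.13 for Wnt5a, with adjusted p of 9.7e-15 and 5.6e-21. Wnt6 and Wnt7b passed with adjusted p of 2.9e-07 and 3.8e-04, and their sizes are given from counts because some types held no UMI. Wnt7b had 9 UMIs in stroma and 551 in nephron types, a level 10.6 times lower (95% interval 5.57 to 23.4), with 18.0 in replicate 1 and 6.95 in replicate 2. Pooled counts gave ratios of stroma to nephron of 13.1 for Wnt6 (95% interval 8.93 to 19.5), 8.74 for Wnt11 (7.44 to 10.3) and 4.92 for Wnt5a (4.59 to 5.26). Wnt4 missed the threshold at -1.02 ± 0.47 (SE), adjusted p = 0.062, and passed it under 7 of 12 alternatives. Wnt9b held 4 UMIs in stroma and 42 in nephron types, and the ratio of 0.548 had an interval of 0.143 to 1.51.

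**Figure D3:**
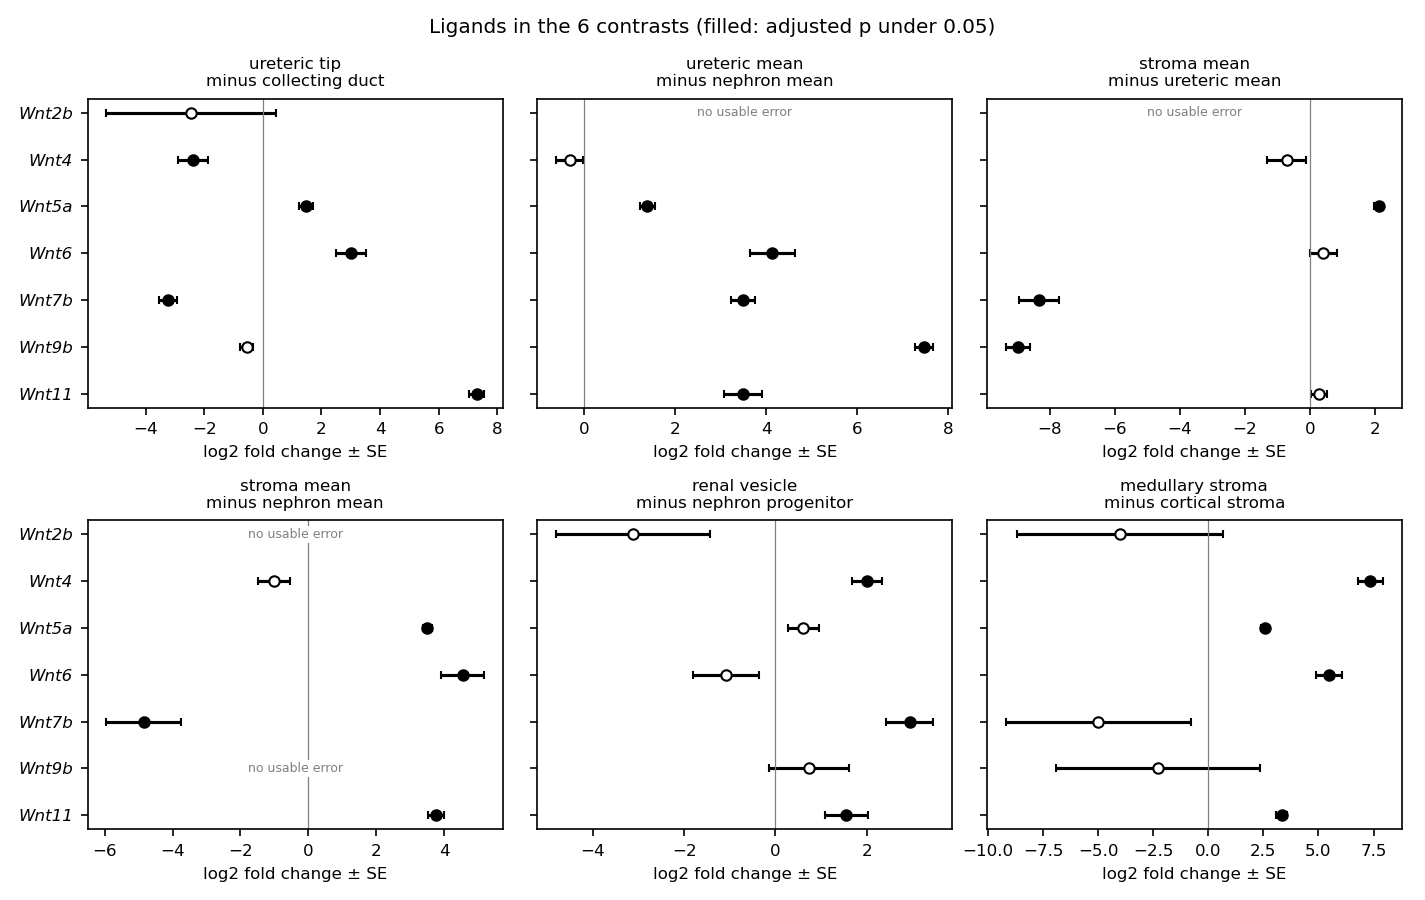
Log2 fold change ± SE (horizontal axis) of each ligand in the 6 contrasts of types, filled where the adjusted p is under 0.05. Wnt11 reaches 7.29 in the tip against the collecting duct, and Wnt4, Wnt5a, Wnt6 and Wnt11 all lie right of 0 in medullary against cortical stroma.

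**Figure D4:**
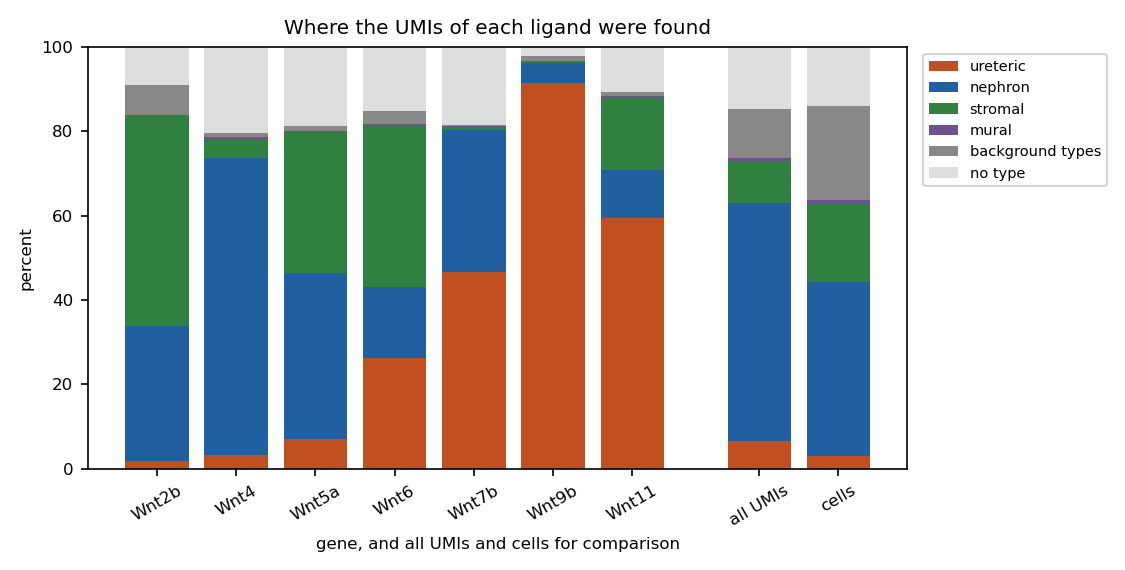
Share (percent, vertical axis) of the UMIs of each ligand found in ureteric, nephron, stromal, mural and background types and in cells of no type, beside the same shares of all UMIs and of all cells. Ureteric types hold 91.6% of Wnt9b but 2.94% of cells.

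Each ligand thus had its own profile over types, and the map relative to each gene's highest type shows where profiles met. Medullary stroma was the highest type for Wnt5a and Wnt6 and the second for Wnt11, and for Wnt4 it was one of 3 types whose order is not resolved. The distal precursor held both Wnt5a and Wnt7b, and the share of its cells with Wnt7b was close in cells with and without Wnt5a. There, thinned to 11900 UMIs, 31.7% and 32.1% of cells with Wnt5a had Wnt7b, against 30.6% and 33.3% of cells without.

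**Figure D5:**
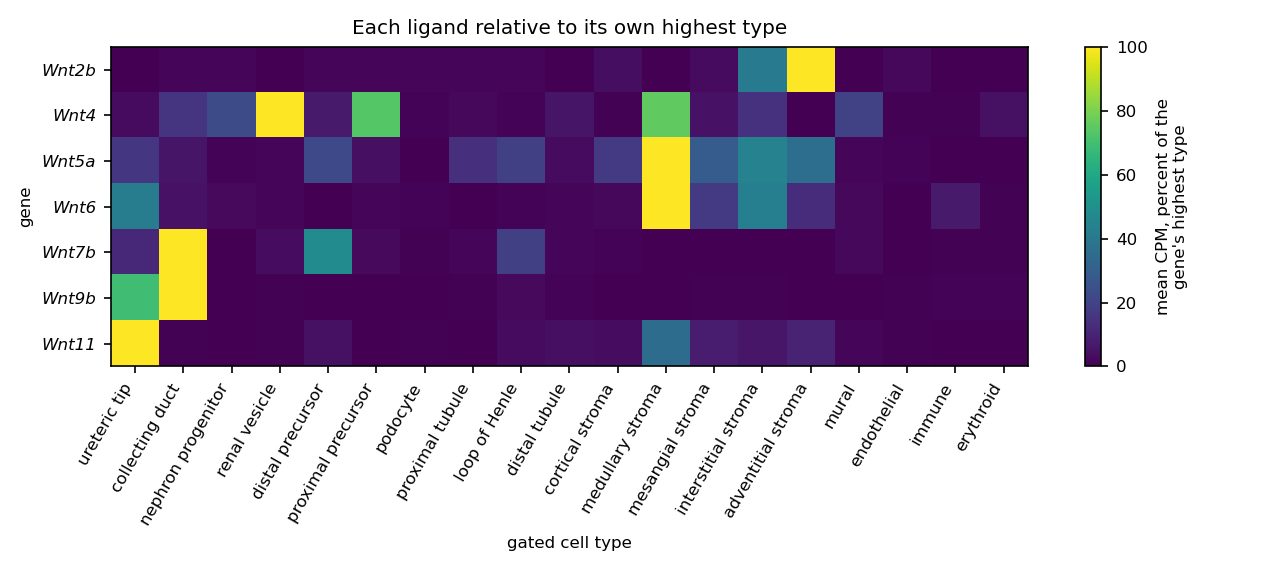
Mean CPM of each ligand in each gated type as a percent of the gene's own highest type (colour). Medullary stroma is bright for Wnt4, Wnt5a and Wnt6, and Wnt9b is bright in the tip and collecting duct and dark elsewhere.

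The genes most like each ligand were sought among 15774 genes with at least 20 UMIs in each library. The measure was the smaller of the 2 per-library Pearson correlations of log2(CPM + 1) over the 19 types, which share libraries and differ in depth. Among the closest profiles were those of Mfi2 (0.979) and Ros1 (0.938) for Wnt9b. AU022754 (0.912), Oit1 (0.891) and Fcgbp (0.877) were closest to Wnt7b, each with its highest level in the collecting duct. Abca8a (0.923), B830012L14Rik (0.885) and Col5a3 (0.884) were closest to Wnt2b, whose own 32 and 19 UMIs make these weak. Zfp536 (0.868), RP23-291B1.2 (0.792) and Adamts18 (0.785) were closest to Wnt6. Wnt11 was closest to Gpm6b (0.839), Ror2 (0.770), which encodes a receptor for Wnt5a, and Cntn1 (0.769). Wnt5a was closest to Lgi2 (0.811) and Fzd1 (0.799), which encodes a Frizzled receptor. Wnt4 had no close match, with Fsd1 (0.733), Dtx1 (0.710), which encodes a Notch pathway ubiquitin ligase, and Tceal3 (0.704) leading.

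Other genes of the Wnt pathway were counted from a list of 57, of which 47 were expressed enough to test. The genes named from it were the 2 in each direction with the largest changes among those past the threshold, together with the targets Lef1 and Axin2 and the carrier Wls, which were chosen after their values were seen. In medullary against cortical stroma 16 of the 47 were higher and 4 lower, where 9.11% and 9.46% of all genes were, with a median log2 fold change of 0.44 over the list and -0.04 over all genes tested. Of the 7 targets of canonical signalling listed, 6 were higher in medullary stroma, with a median of 2.89. Lef1 stood at 133 and 138 CPM in medullary and at 4.25 and 5.69 CPM in cortical stroma, and Axin2 at 53.3 and 68.2 CPM against 10.6 and 11.4 CPM. The receptor Fzd10 stood at 66.6 and 148 CPM against 0.193 and 0 CPM. Notum, an enzyme that inactivates Wnt proteins, gave 1 and 13 UMIs in medullary stroma and 0 in cortical stroma, where a count of 0 allows up to 0.579 and 0.632 CPM. The R-spondin Rspo3, an amplifier of Wnt signals, and the inhibitor Dkk1 were higher in cortical stroma, by log2 differences of -3.91 ± 0.52 and -3.71 ± 0.26 (SE, medullary minus cortical).

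In the tip against the collecting duct 17 of the 47 were higher and 9 lower, where 15.8% and 19.3% of all genes were, with a list median of 0.22 and -0.06 over all genes. Targets were higher in 5 of 7, Lef1 with 34.6 and 23.4 CPM against 1.08 and 1.93 CPM and Axin2 with 42.5 and 47.3 CPM against 12.1 and 15.4 CPM. Wif1, a secreted inhibitor, held 57 and 56 UMIs in the tip and 0 in the collecting duct, and the receptor Fzd9 held 17 and 10 against 0, which allows up to 0.648 and 0.827 CPM. The inhibitor Sostdc1 was lower in the tip, at 31.7 and 30.6 CPM against 191 and 225 CPM. Another ligand, Wnt10a, was lower too, from 0 and 2 UMIs against 8 and 15. Wls, the carrier that Wnt proteins need for secretion, stood at 144 and 125 CPM in the tip and 321 and 299 CPM in the collecting duct.

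From progenitor to renal vesicle 23 of the 47 were higher and 10 lower, where 21.4% and 23.7% of all genes were, with a list median of 0.38 and -0.06 over all genes. Dkk1 stood at 131 and 123 CPM in the renal vesicle and at 0.727 and 0.980 CPM in progenitors, and Wnt16 gave 30 and 39 UMIs against 2 and 0. Lef1 rose from 2.83 and 2.10 CPM to 78.9 and 92.1 CPM. Rspo3 fell from 60.1 and 102 CPM to 3.42 and 1.44 CPM, and the receptor Fzd2 from 262 and 214 CPM to 65.2 and 65.6 CPM. Axin2 was lower in the renal vesicle, with a log2 fold change of -0.48 ± 0.16 (SE), adjusted p = 0.015, so the targets did not move as one.

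In the 3 contrasts of lineage means the pathway list was split. Ureteric against nephron types had 17 higher and 10 lower, where 23.1% and 20.8% of all genes were. Stromal against ureteric types had 16 and 13, where 25.6% and 33.0% of all genes were, and stromal against nephron types 17 and 13, where 26.6% and 34.9% were. The list medians lay between -0.0083 and 0.0011 in log2. Rspo1, an R-spondin, was lower in ureteric than nephron types by a log2 difference of -4.66 ± 0.37 (SE), with 252 CPM in progenitors, and the inhibitor Frzb by -4.31 ± 0.66. Sfrp1, another inhibitor, was higher in stromal than nephron types by 5.39 ± 0.07 (SE) in log2. Other genes past the threshold held 0 UMIs in some types of the lower lineage, so they are described by counts and mean levels. Rspo3 and Apcdd1 had 0 UMIs in the tip and 4 and 1 in the collecting duct, against 73.3 CPM of Rspo3 in cortical and 41.6 CPM of Apcdd1 in medullary stroma. Rnf43, a brake on Frizzled levels, stood at 40.3 CPM in the tip, 21.1 CPM in the collecting duct and at most 1.46 CPM in a stromal type. The R-spondin receptor Lgr5 stood at 33.6 CPM in the tip and 7.21 CPM in the collecting duct, and in 4 of the 5 stromal types at 0.606 CPM or less. The exception was adventitial stroma, where 8 Lgr5 UMIs gave a mean of 12.0 CPM, above the collecting duct, with all 8 in replicate 2. In the equal-weight fit Rnf43 and Lgr5 were lower in stroma than in ureteric types (adjusted p = 1.1e-15 for Rnf43 and 3.1e-09 for Lgr5) and than in nephron types (adjusted p = 1.0e-06 and 2.3e-06). The ligand Wnt2 was led by adventitial stroma, with 38 UMIs and 53.9 CPM, against 4 UMIs in the collecting duct, 2 in the tip and 2 in all nephron types. Wnt10a passed as higher in the equal-weight mean of ureteric than of nephron types (adjusted p = 0.018), yet its highest level was 10.9 CPM in the loop of Henle (109 UMIs), against 2.93 CPM in the collecting duct (23 UMIs).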

How the data were processed

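The data were single-cell RNA-seq of 2 kidney libraries. The deposited files hold raw UMI counts per gene and barcode, with every barcode kept. The file headers name Cell Ranger 4, whereas the submitters' processing notes list Cell Ranger 6.0.1 and the mm10 build, and the aligner settings were not given in the sources used here. The members, marker lists and pathway list were chosen with earlier results of these data known, and the replicates were numbered in accession order.

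Barcodes with at least 2000 UMIs and at most 10% mitochondrial UMIs were kept. Doublets were scored with Scrublet in scanpy 1.11.5 (expected rate 6%), and the highest-scoring cells were removed at 0.8% per 1000 cells, that is 329 and 225 cells, where the automatic threshold marked 63 and 22. Each cell was scored by the mean over a marker list of its log-normalised level, scaled to the 90th percentile of cells with the gene. A type needed a score of 0.2 and a lead of 0.1 over the next class, or 0.05 between types within a class. Of the 10815 cells, 353 scored too low, 681 lay within the lead and 473 had no type within their class. UMIs were summed per library and type and tested in edgeR 4.0.16 (R 4.3.3, limma 3.58.1) by the quasi-likelihood test with library as a block, TMM scaling and the edgeR filter on low counts, over 14233 genes and 32 sums with 15 residual degrees of freedom. Benjamini-Hochberg adjustment was over all genes, with a threshold of 0.05, and standard errors were taken as the log2 fold change over the root of F. Sums of types from 1 library share that library, and the block takes up only a shift common to all its types. The p-values rest on what remains between the 2 libraries, pooled over the 16 types as if their sums were independent.

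Levels are CPM with exact 95% Poisson intervals, and 3 counts were taken as the limit of a count of 0. Levels were not compared between genes, because counts from 3' ends differ in capture. Genes were named by rule: the 7 members, the 3 genes most like each (some are not reported here), and the 2 pathway genes with the largest changes in each direction. Simulated sums for tip against collecting duct over 14074 genes gave 55 of 91 calls at a log2 change of 1 and 108 of 109 at a log2 change of 2, with 5 calls among 13874 unchanged genes. The simulation gave all genes the same spread and no library effect, and changed only genes above a minimum of expected tip UMIs. These counts are therefore not the error rates of the real fit, least of all for scarce ligands such as Wnt2b. Alternatives covered cell filters, doublets, gates, clusters, DESeq2 1.42.0, the gene filter, the block and each library left out, where log2 CPM with a prior count of 2 gave values with no test.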

Additional observations from a re-analysis of the deposited data

Results flagged for a closer look

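Cells that passed the filters but were given no type were outside every comparison, yet held ligand UMIs above the limit that a count of 0 allows there, 0.234 CPM. In these cells Wnt4 stood at 252 ± 27.2 CPM (mean ± SD, n = 2 libraries), Wnt5a at 28.6 ± 0.57 CPM, Wnt7b at 9.96 ± 0.93 CPM and Wnt11 at 7.75 ± 0.36 CPM. Wnt6 stood at 1.22 ± 0.37 CPM and Wnt9b at 0.631 ± 0.23 CPM. They made up 13.9% of kept cells and 14.8% of all UMIs. Of the UMIs of each ligand they held 20.5% for Wnt4, 18.8% for Wnt5a and 18.4% for Wnt7b. The shares were 15.2% for Wnt6, 10.6% for Wnt11, 8.93% for Wnt2b and 2.25% for Wnt9b.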

How the results depend on the processing

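Of 556 values recomputed under the alternatives, 489 kept their direction and side of the threshold or, where untested, lay within the standard error of the fit. Another 43 lay outside it or changed sign without a call, 21 passed the threshold anew, 2 lost it and 1 reversed. No value could lie outside it where that error was not usable, as for Wnt2b in the contrasts of lineage means and Wnt9b in stroma against nephron types. The reversed value was Wnt4 in ureteric against nephron types with clusters, 0.58 in log2 (adjusted p = 0.011). Clusters also raised the ligands past the threshold in stroma against ureteric types to 5, where 8677 of 14987 genes tested passed. The lost calls were Wnt11 from progenitor to renal vesicle with at most 5% mitochondrial UMIs (1.44, adjusted p = 0.13) and with a stricter lead (0.63, adjusted p = 0.47). For each, the cause was not tested. Without the replicate block, the ligands past the threshold numbered 5, 5, 3, 5, 3 and 4 in tip against collecting duct, ureteric against nephron, stroma against ureteric, stroma against nephron, renal vesicle against progenitor and medullary against cortical stroma, and the added one was Wnt4 in stroma against nephron types (-1.03, adjusted p = 0.045). Of the 14233 genes tested there, 4597, 5957, 8274, 8752, 5501 and 2574 passed, in the same order of contrasts. Wnt9b in tip against collecting duct passed under 4 of 11 alternatives. Wnt5a from progenitor to renal vesicle passed under 3 of 12. With one library left out, stroma against ureteric types gave -0.41 and 0.84 for Wnt6 and -0.31 and 0.66 for Wnt11, so neither direction holds in both libraries. The highest type for Wnt4 became medullary stroma without replicate 1 (909 CPM against 751 CPM in renal vesicle) and with clusters (898 CPM against 769 CPM). At most 5% mitochondrial UMIs left 10 types, without ureteric, medullary and adventitial ones, so 4 contrasts gave no value there. Leaving out the cell with the most UMIs was chosen after seeing the data. Depth limits Wnt2b, with 56 UMIs, and Wnt6, with 237.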

Other observations

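Cells set aside between a pair of classes also carried ligands. Cells between ureteric and early nephron, 32 and 34 in replicates 1 and 2, held 34.5 and 30.3 CPM of Wnt7b and 0 Wnt9b UMIs, which allows up to 2.35 and 3.13 CPM, under the levels of both gated ureteric types. Cells between early nephron and loop of Henle, 27 and 34, held 43.5 and 34.0 CPM of Wnt7b, above the 19.2 and 12.8 CPM of the loop of Henle itself. Cells between progenitor and distal tubule, 25 and 13, held 837 and 527 CPM of Wnt4, the first within and the second below the range of the renal vesicle. These are small groups of cells, given with no test.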
